A study of Caenorhabditis elegans with 12 samples.

Results

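The windows described here are the promoter windows that lie near the ends of *Caenorhabditis elegans* chromosomes II, III, IV, V and X. A window was taken where it was a single interval of 1700 bp (1500 bp upstream and 200 bp downstream of a transcription start site, TSS) and began within 250 kb of either end of its chromosome in the ce10 assembly. This gave 889 of the 51519 windows of the table, at 10 ends, with 791 distinct positions, because 98 windows repeat the coordinates of another transcript of the same gene or locus. The right end of IV held the most windows (173), followed by the left ends of II (141) and V (101) and the right ends of V (94) and III (83). The left end of IV held 73, the left end of III 72, the right end of II 71, the right end of X 56 and the left end of X 25. Of the 889 windows, 656 belong to protein-coding genes, 100 to ncRNA genes and 53 to piRNA genes, 44 of which lie at the right end of IV. Another 57 windows have a transcript identifier without a symbol, and 5 carry an identifier that the WBcel235 annotation places on another chromosome.

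ATAC-seq was performed on sorted body-wall muscle cells of L3 larvae, in 4 genotypes with 3 libraries each. These were *met-2 set-25*, called the double mutant below (*met-2(n4256)* and *set-25(n5021)*, both on III), *met-2* (*met-2(n4256)*), *set-25* (*set-25(n5021)*) and WT, which the labels give as N2 (Bristol). The study sorted muscle cells by an RFP reporter carried in the *gwIs4* array, which the label of the WT does not mention. The growth protocol of the labels speaks of 2 independent biological replicates, whereas 3 libraries are listed for each genotype and the study describes as many independent replicates.

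In ATAC-seq the Tn5 transposase inserts adaptors into accessible DNA, so that the reads counted in a window rise with how open its chromatin is. MET-2 and SET-25 are histone methyltransferases that act on lysine 9 of histone H3 (H3K9). MET-2, the homologue of mammalian SETDB1, deposits mono- and dimethylation, whereas SET-25 deposits trimethylation, and *met-2 set-25* embryos lack detectable H3K9 methylation. H3K9-methylated chromatin of the worm is concentrated on the distal arms of the autosomes and binds to the nuclear lamina, and each chromosome ends in telomeric repeats.

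The column totals of the 12 libraries ranged from 50148450 to 105547683 counts. Values below are normalized counts, that is counts scaled to a common column total (the mean of the 12), and differences were tested with edgeR's quasi-likelihood test in one fit of all windows. A window was called at a Benjamini-Hochberg false discovery rate (FDR) below 0.01. The libraries differed in how much of their signal lay in strong windows. A signal index, the percentage of counts that fell in the strongest 5% of autosomal windows, was 10.1, 11.3 and 10.4% in double-mutant cells, 9.81, 10.03 and 8.90% in *met-2* cells, 9.15, 9.18 and 9.15% in *set-25* cells and 9.34, 10.02 and 9.11% in WT. All 3 double-mutant libraries lay above the 9 others. Windows of 12 body-wall muscle genes held on average 2136 to 2353 normalized counts in *met-2 set-25* libraries and 1835 to 2030 in WT libraries, whereas windows of 7 intestinal genes held 1409 to 1500 in double-mutant cells and 1485 to 1544 in WT. Windows of 5 neuronal genes held 1439 to 1516 in double-mutant cells and 1577 to 1666 in WT, and those of 6 germline genes 1538 to 1571 in double-mutant cells and 1581 to 1632 in WT, without overlap in either case. Hypodermal and pharyngeal windows overlapped, with 1581 to 1663 in double-mutant cells and 1558 to 1661 in WT. The levels of the lists other than muscle were close to the WT median of 1506 over all positions, so that windows of other tissues were not at 0. No window of a marker list other than muscle was called in *met-2 set-25* against WT.

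Accessibility near the chromosome ends differed moderately from that elsewhere, with 1 exception that was far lower. The median WT level of the positions at an end was between 1535 (II right) and 1893 (III right) normalized counts at 9 of the 10 ends. Outside the ends the median was 1581 on II, 1615 on III, 1397 on IV, 1537 on V and 1550 on X. By medians the ends of IV, with 1678 on the left and 1729 on the right, stood furthest above the rest of their chromosome. By the WT ratio of the mean at an end to that of the rest of its chromosome, III right (1.21) lay between IV right (1.23) and IV left (1.16). The gene types of the windows were not matched in these comparisons. The exception was the left end of X, where the median was 612 and the highest of 25 windows reached 1172. Its mean was 0.37 to 0.44 of the mean over the rest of X in each of the 12 libraries, and it had the lowest WT level of the 343 segments of 250 kb on these chromosomes. The first window at this end began 46.3 kb inwards, and 1 window, of NM_001383517, had no count in any library, which allows up to 3 counts per library. The low level held for protein-coding, ncRNA and snoRNA windows alike, among them the F-box genes *fbxa-222* (910 normalized counts in double-mutant cells and 893 in WT) and *fbxa-16* (664 in double-mutant cells and 668 in WT). The treatment of reads with several matches is not stated, and its part in this low level was not tested.

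The mean levels of *met-2 set-25* and WT libraries overlapped at 8 of the 10 ends and did not at the right end of X and the left end of IV. At the right end of X the mean over 48 positions was 1957, 2140 and 1979 normalized counts in the *met-2 set-25* libraries, 1859, 1919 and 1736 in *met-2* cells, 1706, 1713 and 1723 in *set-25* cells and 1809, 1851 and 1739 in WT. All 3 *met-2 set-25* libraries lay above the 9 others, and the *set-25* libraries lay below those of WT. At the right end of III the levels were 1931 ± 68.6 in double-mutant cells, 1872 ± 41.1 in *met-2* cells, 1900 ± 42.0 in *set-25* cells and 1972 ± 21.9 in WT (SD, n = 3 each). Those at the left end of IV were 1577 ± 21.9 in double-mutant cells, 1590 ± 13.4 in *met-2* cells, 1605 ± 21.9 in *set-25* cells and 1653 ± 56.1 in WT, where the *met-2 set-25* libraries lay below those of WT. At the left end of X the levels were 648 ± 27.1 in double-mutant cells, 675 ± 23.0 in *met-2* cells, 667 ± 6.70 in *set-25* cells and 648 ± 17.2 in WT. The *met-2 set-25* and *met-2* libraries overlapped with those of WT, and the *set-25* libraries lay just above them.

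**Figure D1:**
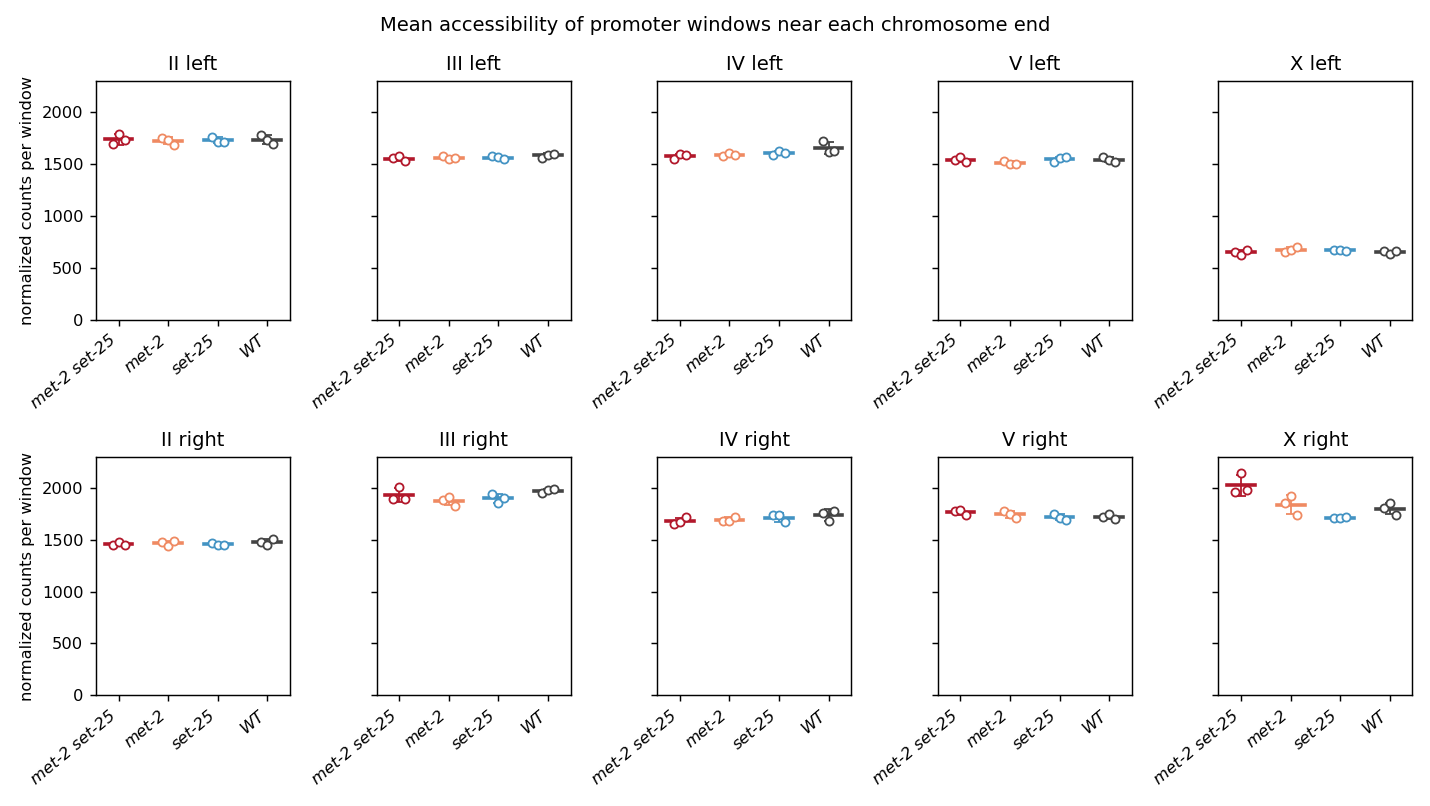
Mean normalized counts per window at each of the 10 chromosome ends (y axis, from 0) for *met-2 set-25*, *met-2*, *set-25* and WT (x axis). Circles are the 3 libraries, thick bars their mean and thin bars the SD. The left end of X lies near 650 in every genotype, and the *met-2 set-25* libraries stand above the others only at the right end of X.

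The outermost windows lay between 0.134 kb (*idpp-2*, V left) and 48.7 kb (*frm-5.1*, a FERM domain gene, IV left) from the end. The outermost window at the right end of II, of the ncRNA *W10C4.2*, runs 977 bp past the end of the assembled chromosome, so that it is truncated, and its identifier belongs to III in the WBcel235 annotation. It held 197, 203 and 147 normalized counts in double-mutant cells and 182, 200 and 245 in WT. The outermost window at the right end of III (chrIII:13778614-13780313) belongs to *pot-3*, which encodes a homologue of the telomere-binding protein POT1, and was the most accessible of all end windows. *pot-3* had 6890, 7312 and 7029 normalized counts in double-mutant cells, 6900, 7060 and 7129 in *met-2* cells, 7383, 7207 and 7784 in *set-25* cells and 7318, 6977 and 7845 in WT. The genotypes overlapped, with a log2FC of -0.06 (SE 0.07, FDR 0.634) for *met-2 set-25* over WT. The outermost window of *cTel17.1* (V right) had 1167, 1170 and 1191 normalized counts in double-mutant cells and 1007, 1076 and 991 in WT. The libraries of both genotypes did not overlap, but the difference was not called in edgeR (log2FC 0.20, SE 0.07, FDR 0.060), while DESeq2 called it (log2FC 0.23). Of the 10 outermost windows only that of *Y73B3A.20* at the left end of X was called in *met-2 set-25* against WT.

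Accessibility did not change steadily towards the chromosome ends. The 93 positions within 25 kb of an end held 1758 ± 47.8 normalized counts on average in double-mutant cells, 1720 ± 39.3 in *met-2* cells, 1726 ± 34.4 in *set-25* cells and 1770 ± 5.65 in WT (SD, n = 3 each). The 160 positions between 200 and 250 kb held 1664 ± 22.9 in double-mutant cells, 1627 ± 20.6 in *met-2* cells, 1610 ± 8.69 in *set-25* cells and 1645 ± 24.1 in WT. The distances do not hold the same ends, since the left ends of IV and X have no window within 25 kb. Without the left end of X, positions between 200 and 250 kb held 1694 ± 24.1 in double-mutant cells and 1675 ± 24.0 in WT. The median log2FC of *met-2 set-25* over WT was between -0.05 and -0.02 in each of the 6 distance bins. Within 25 kb of an end 0 positions were called higher and 1 lower, where 3.44% and 0.731% of all windows were. Between 25 and 50 kb 6 were higher and 3 lower, and all 6 lay on X, 5 at its right end and 1 at its left.

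In *met-2 set-25* against WT, 23 of the 888 end windows tested were higher (2.59%) and 8 were lower (0.901%). Over all 51281 windows tested 3.44% were higher and 0.731% lower. The median log2FC was -0.03 at the ends and -0.04 over all windows, which is the shift against which single changes are to be read. The gains were distributed unevenly, however, since 17 of the 23 lay at the right end of X, where 30.4% of the 56 windows tested were called. On the rest of X 9.33% of 6606 windows were higher. Without the right end of X, 6 of 832 end windows were higher (0.721%), a smaller share than over all windows, and 8 lower (0.962%). At the ends of II to V 5 of 808 were higher (0.619%), beside 1.97 to 3.50% on the rest of these chromosomes. Many of the called windows share reads: the 17 called at X right had 10 distinct positions, which form 4 separate loci of 5 genes. With edgeR's TMM factors in place of column totals the split was 29 higher and 2 lower. The gains were not called in a fit that adjusted for the signal index (0 higher and 0 lower of the end windows). The log2FC of some windows outside X right moved little in that fit, such as *toca-2* (-0.30 without and -0.29 with the index), *ints-13* (-0.22 and -0.20) and *Y73B3A.20* (0.37 and 0.30). Other gains outside X right shrank in it, namely *aldo-1* (0.33 without and 0.02 with the index), *gst-39* (0.32 and 0.05) and *ubxn-3* (0.32 and 0.08). None of the higher calls was made without *met-2 set-25* replicate 2 or without WT replicate 3, whereas 4 were made without WT replicate 1 and 39 without WT replicate 2.

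**Figure D2:**
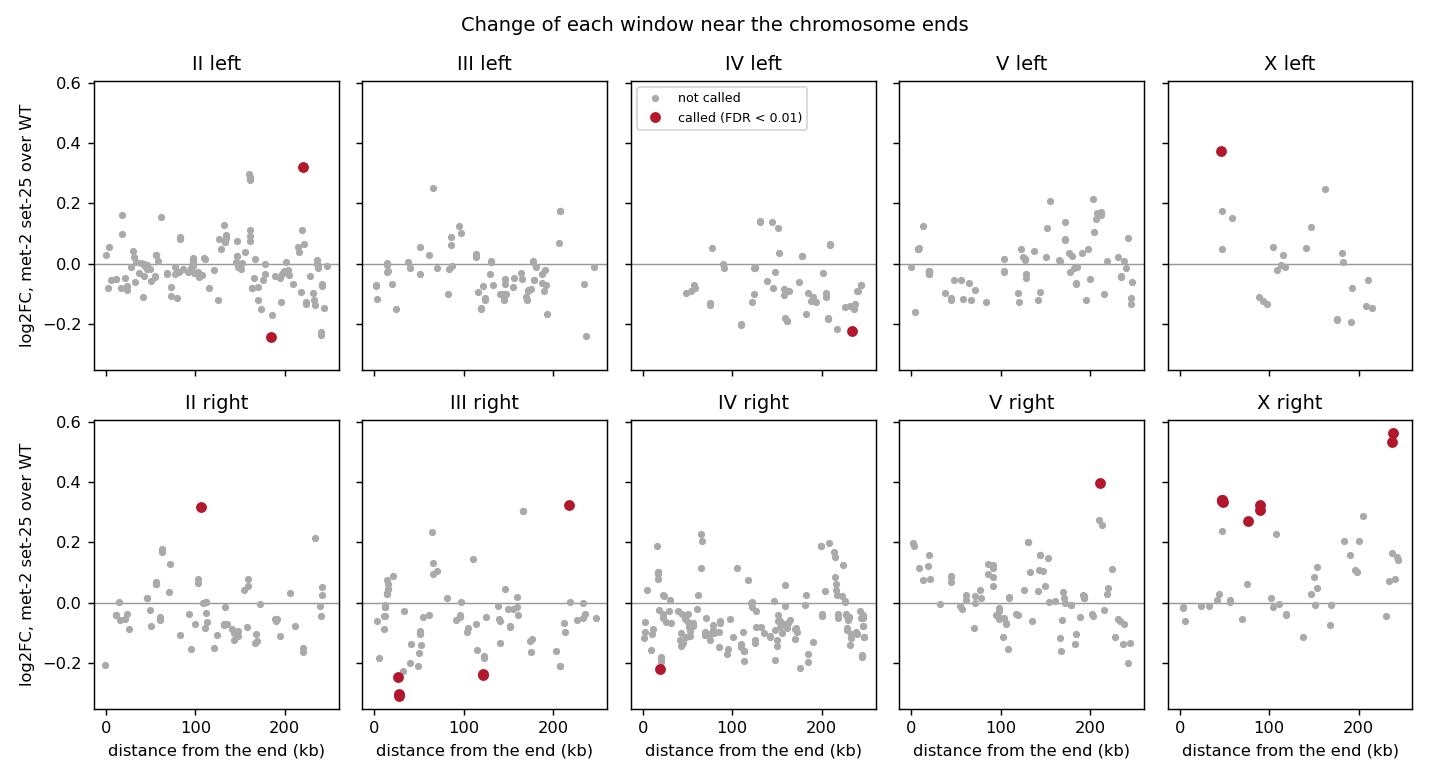
log2FC of *met-2 set-25* over WT (y axis) against the distance of each distinct window from its chromosome end in kb (x axis), in 1 panel per end. Red points are windows with an FDR below 0.01. Called windows at the right end of X lie between 47.7 and 238.1 kb from the end, and the 5 lower windows at the right end of III between 26.5 and 122.0 kb.

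The windows with the largest gain lay 237.6 and 238.1 kb from the right end of X and belong to the ncRNAs *R106.8* (chrX:17479080-17480779) and *R106.6* (chrX:17479589-17481288), which overlap. *R106.8* had 4881, 6924 and 5827 normalized counts in double-mutant cells, 4777, 4923 and 3430 in *met-2* cells, 3544, 3581 and 3683 in *set-25* cells and 3876, 4623 and 3447 in WT. All *met-2 set-25* libraries lay above those of WT and *set-25*, although replicate 1 exceeded WT replicate 2 by a small margin and lay below *met-2* replicate 2. The log2FC was 0.56 over WT (SE 0.10, FDR 0.00025) and 0.71 over *set-25* (SE 0.10, FDR 1.9e-06), against 0.14 in *met-2* and -0.14 in *set-25* over WT, neither of which was called. DESeq2 did not call *R106.8* or *R106.6* over WT. Within *met-2 set-25*, *met-2* and WT the order of the libraries at *R106.8* was that of their signal index, and with the index as a covariate the log2FC was 0.07. *R106.6* is also the window with the highest WT level at this end (5841 ± 994 normalized counts in double-mutant cells and 4038 ± 547 in WT, SD, n = 3 each).

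A second locus with gains lay 47.7 to 48.3 kb from the same end. *T23E7.8*, an ncRNA at chrX:17668910-17670609, had 2294, 2442 and 2142 normalized counts in double-mutant cells, 2030, 2073 and 1691 in *met-2* cells, 1695, 1700 and 1699 in *set-25* cells and 1940, 1922 and 1613 in WT. Its log2FC was 0.33 over WT (SE 0.07, FDR 0.00093). The overlapping protein-coding gene *T23E7.2* has 11 windows with nearly the same coordinates, all of which were higher (log2FC 0.34, SE 0.08 each), and 1 window at 41.1 kb with 2167 normalized counts in double-mutant cells and 2154 in WT (log2FC 0.01). The remaining loci belong to *H18N23.2*, a protein-coding gene whose 3 windows between 76.6 and 89.5 kb were all higher. Its window at chrX:17640596-17642295 had 1818, 2022 and 1863 normalized counts in double-mutant cells, 1577, 1838 and 1496 in *met-2* cells, 1486, 1392 and 1460 in *set-25* cells and 1503, 1653 and 1560 in WT (log2FC over WT 0.27, SE 0.06, FDR 0.0020). The 3 *met-2 set-25* libraries lay above all WT libraries at this window of *H18N23.2*. At *R106.8* and *T23E7.8* such a separation was a condition for naming the window and is no separate result. The *met-2 set-25* libraries overlapped with *met-2* at *R106.8* and *H18N23.2*.

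The other genes at the right end of X had no called window in this comparison. *nhr-1*, a nuclear hormone receptor gene with 3 windows, had a median log2FC of 0.20 over WT, and 2 of its windows were called against *set-25*. The neuropeptide gene *nlp-6* held 1596 normalized counts in double-mutant cells and 1592 in WT. The closest window to the telomere, of *cTel55X.1* (3.78 kb), had a log2FC of -0.01 (SE 0.06). *hlh-28* and *hlh-29*, which encode closely related basic helix-loop-helix factors whose counts may be shared between copies, were low in both genotypes (*hlh-28*, 699.9 in double-mutant cells and 739 in WT). In this end as a whole, the lowest double-mutant library exceeded the highest WT library at 28 of the 56 windows, and the highest lay below the lowest of WT at 0. The double mutant lay above WT without overlap at 26.1% of windows on the rest of X and at 10.5% of all windows, and below WT at 17% of all windows. The 56 windows of the right end of X have 48 distinct positions, some of which overlap and share reads, and the separation was counted by window and not by locus.

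**Figure D3:**
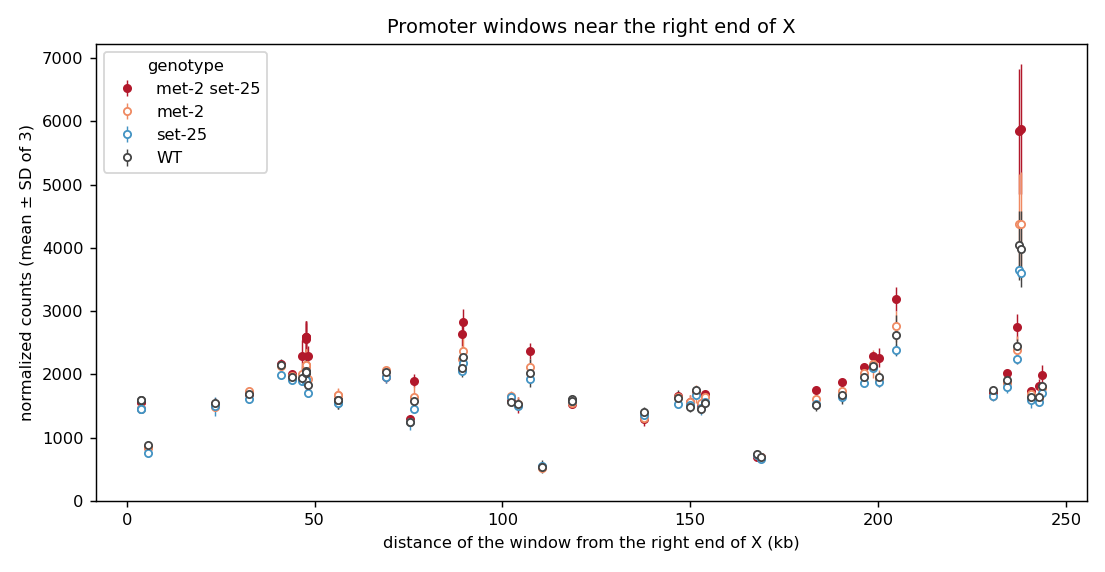
Normalized counts (y axis, mean and SD of 3 libraries) of each distinct window near the right end of X against its distance from the end in kb (x axis), for the 4 genotypes. The *met-2 set-25* values (filled) are the highest of the 4 genotypes near 48, 77, 89 and 238 kb, and lie among them within 25 kb of the end.

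At the other ends single windows changed. *Y73B3A.20* (chrX:46266-47965), the outermost window of the left end of X, had 729, 764 and 714 normalized counts in double-mutant cells, 662, 687 and 665 in *met-2* cells, 585, 549 and 656 in *set-25* cells and 602, 591 and 518 in WT. It rose in the double mutant (log2FC 0.37, SE 0.08, FDR 0.0010) and was the only called window at this end. *Y44A6C.4*, an ncRNA that had the highest WT level at the right end of V, had 3502, 3990 and 3703 normalized counts in double-mutant cells and 2754, 3114 and 2634 in WT (log2FC 0.40, SE 0.09, FDR 0.0029). *aldo-1*, which encodes a fructose-bisphosphate aldolase of glycolysis, lay 217.4 kb from the right end of III and had 2838, 3562 and 2936 normalized counts in double-mutant cells and 2400, 2732 and 2318 in WT (log2FC 0.33, SE 0.09, FDR 0.0097). *gst-39*, a glutathione S-transferase gene at the right end of II, had a log2FC of 0.32 (SE 0.08, FDR 0.0070), as had *ubxn-3*, a UBX domain gene at the left end of II (SE 0.08, FDR 0.0089). The called windows of all 5 genes were also higher than in *set-25*. The calls of *aldo-1* and *ubxn-3* lay close to the threshold and were lost in 12 and 10 of 19 alternatives, among them the fit of the compared genotypes alone.

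Most of the lower windows lay at the right end of III, where 5 of 83 were called (6.02%), beside 1.27% on the rest of III and 0.731% of all windows. The largest decreases were those of the 2 overlapping windows of *toca-2*, which encodes an F-BAR protein of membrane trafficking, 27.7 kb from the end. The one with the smaller FDR (chrIII:13754343-13756042) had 1356, 1332 and 1311 normalized counts in double-mutant cells, 1337, 1389 and 1346 in *met-2* cells, 1479, 1425 and 1482 in *set-25* cells and 1596, 1608 and 1721 in WT. Every mutant library lay below the WT libraries, and the log2FC over WT was -0.30 in double-mutant cells (SE 0.06, FDR 0.00049), -0.27 in *met-2* (FDR 0.018) and -0.17 in *set-25* (FDR 0.61). The second window of *toca-2* (log2FC -0.31) and that of the piRNA gene *21ur-12364* overlap it and were also lower. The other lower windows of this end were those of the overlapping ncRNAs *ZK525.4* and *ZK525.6*, with 1473, 1482 and 1523 normalized counts in double-mutant cells and 1842, 1648 and 1809 in WT at *ZK525.4* (log2FC -0.24, SE 0.06, FDR 0.0035). At the remaining ends 3 windows were lower, namely *T01D1.4* (II left, log2FC -0.24), *ints-13*, which encodes a subunit of the Integrator complex (IV left, -0.22), and the ncRNA *F11E6.19* (IV right, -0.22). Their calls were lost in 8, 8 and 14 of 19 alternatives, that of *ZK525.4* in 6 and that of *toca-2* in 2. The 5 lower calls at the right end of III became 2 with TMM factors and 0 with the signal index as a covariate. They became 0 without WT replicate 3, 2 without WT replicate 1 or without *met-2 set-25* replicate 1 or 2, and 9 without WT replicate 2. *met-2* and *set-25* lie on III themselves, outside these windows, and whether their place on this chromosome has a part in the decreases was not tested.

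**Figure D4:**
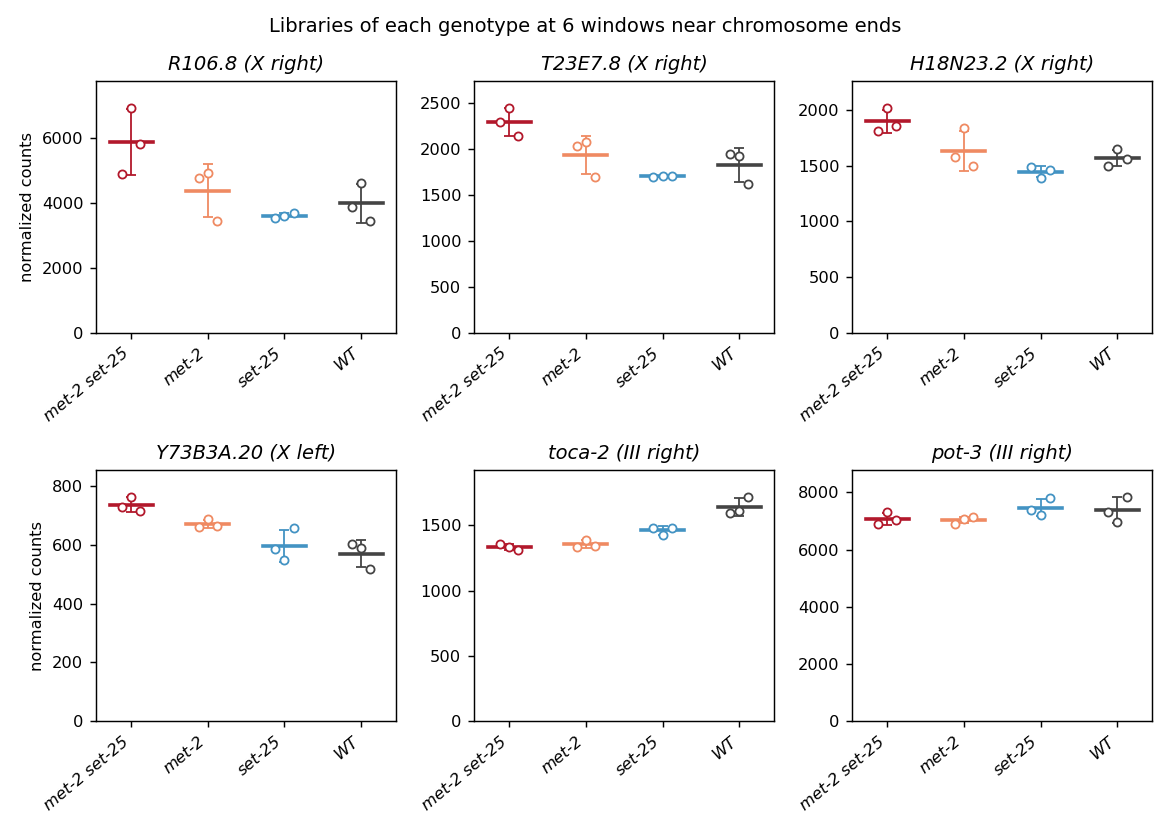
Normalized counts (y axis, from 0) at 6 windows near chromosome ends in the libraries of *met-2 set-25*, *met-2*, *set-25* and WT (x axis). Circles are libraries, thick bars means and thin bars the SD. *R106.8*, *T23E7.8*, *H18N23.2* and *Y73B3A.20* are higher in *met-2 set-25* than in WT, *toca-2* is lower, and the genotypes overlap at *pot-3*.

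No end window was called in either single mutant. In *met-2* against WT 0 of 888 were higher and 0 lower in edgeR's quasi-likelihood test, where 0.0702% and 0.0312% of all windows were called. At an unadjusted p below 0.05, 9 were higher and 51 lower, and DESeq2 called 0 and 2. In *set-25* against WT 0 were higher and 0 lower as well (0.0117% and 0.0156% of all windows), with 16 and 30 at an unadjusted p below 0.05 and 0 in either direction by DESeq2. The median log2FC at the ends was -0.02 in *met-2*, and the windows at the right end of III had the lowest median, -0.08. *met-2 set-25* against *met-2* also gave 0 calls in edgeR (0.367% of all windows higher and 0.0371% lower), with 75 higher and 49 lower end windows at an unadjusted p below 0.05 and 3 and 1 by DESeq2. The share of all windows at an unadjusted p below 0.05 is not given here, and some windows reach it without any change. These counts are therefore not read as changes at the ends.

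The double mutant differed most from *set-25*. Here 53 end windows were higher (5.97%) and 9 lower (1.01%), compared with 7.64% and 3.77% of all windows, and TMM factors gave 68 and 3. Fits without 1 library gave 29 (without *met-2 set-25* replicate 2) to 66 higher windows, and 2 (without *set-25* replicate 1) to 17 lower ones (without WT replicate 2). The right end of X again held the largest share, with 26 of 56 windows higher (46.4%), where the rest of X had 18.7%. These 26 windows had 18 distinct positions at 9 loci. Without this end 27 of 832 end windows were higher (3.245%). With the signal index as a covariate 0 end windows were called in either direction. Gains at other ends included *pck-1*, which encodes the gluconeogenic enzyme phosphoenolpyruvate carboxykinase and is the strongest WT window at the left end of III (2540, 3133 and 2628 normalized counts in double-mutant cells and 2101, 2134 and 2072 in *set-25*, log2FC 0.40, FDR 0.00060). *pat-4*, which encodes the integrin-linked kinase of muscle attachments, was higher as well (0.22, FDR 0.0099). *cTel17.1*, next to the right end of V, was higher too (0.34, FDR 0.00028). *tyr-2*, which encodes a tyrosinase-like protein at the right end of III, was lower (-0.20, FDR 0.0052).

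The interaction of both mutations, that is the log2FC of the double mutant beyond the sum of those of the single mutants, was called at 0 end windows (0.105% of all windows higher and 0.039% lower). At an unadjusted p below 0.05 it was positive at 92 and negative at 30, again without the share of all windows to set beside them, and DESeq2 called 8 and 0. The smallest FDR was that of *T12D8.9* at the right end of III, with 2753, 3501 and 2930 normalized counts in double-mutant cells, 2544, 2597 and 2151 in *met-2* cells, 2102, 2186 and 2225 in *set-25* cells and 2410, 2658 and 2365 in WT (interaction 0.52, SE 0.12, FDR 0.016). It was followed by *nra-1*, a copine gene at the right end of IV (0.32, SE 0.08, FDR 0.023), and *H18N23.2* (0.34, SE 0.09, FDR 0.026).

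Each end was also tested as a whole, by summing its distinct windows in a fit of 343 segments of 250 kb. In *met-2 set-25* against WT 1 of 10 end segments was called, the right end of X, with a log2FC of 0.17 (SE 0.03, FDR 0.00026). Of all 343 segments 19.8% were called, 45 of them on X, where the right end had the highest log2FC of 71 segments. The other 9 ends were between -0.07 (IV left, FDR 0.019) and 0.03 (V right). The left end of X had the lowest log2FC of the X segments, close to 0 (SE 0.04). The right end of X was also the only end called against *met-2* (0.14, FDR 0.0035, 12% of segments called) and against *set-25* (0.24, FDR 5.3e-06, 34.1%). No end was called in *met-2* against WT (0.292% of segments) or in *set-25* against WT (0%). The right end of X had a log2FC of 0.03 in *met-2* and -0.07 in *set-25* over WT. At an unadjusted p below 0.05 in edgeR's test 2 of 10 ends differed in each single mutant against WT, beside 55 of all 343 segments in *met-2* and 59 in *set-25*. DESeq2 called 0 ends in each. The interaction was 0.21 at the right end of X (SE 0.05, FDR 0.0026), where 11.1% of segments were called, and 0.10 at the right end of III (FDR 0.026). With the signal index as a covariate the log2FC of the right end of X over WT was 0.05 and not called. It remained called over WT and over *set-25* when any single library was left out, but not over *met-2* without *met-2 set-25* replicate 2 (0.10), *met-2* replicate 1 (0.15) or *met-2* replicate 3 (0.10). Because the index was highest in the *met-2 set-25* libraries, its share in these differences and that of the genotype cannot be told apart.

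**Figure D5:**
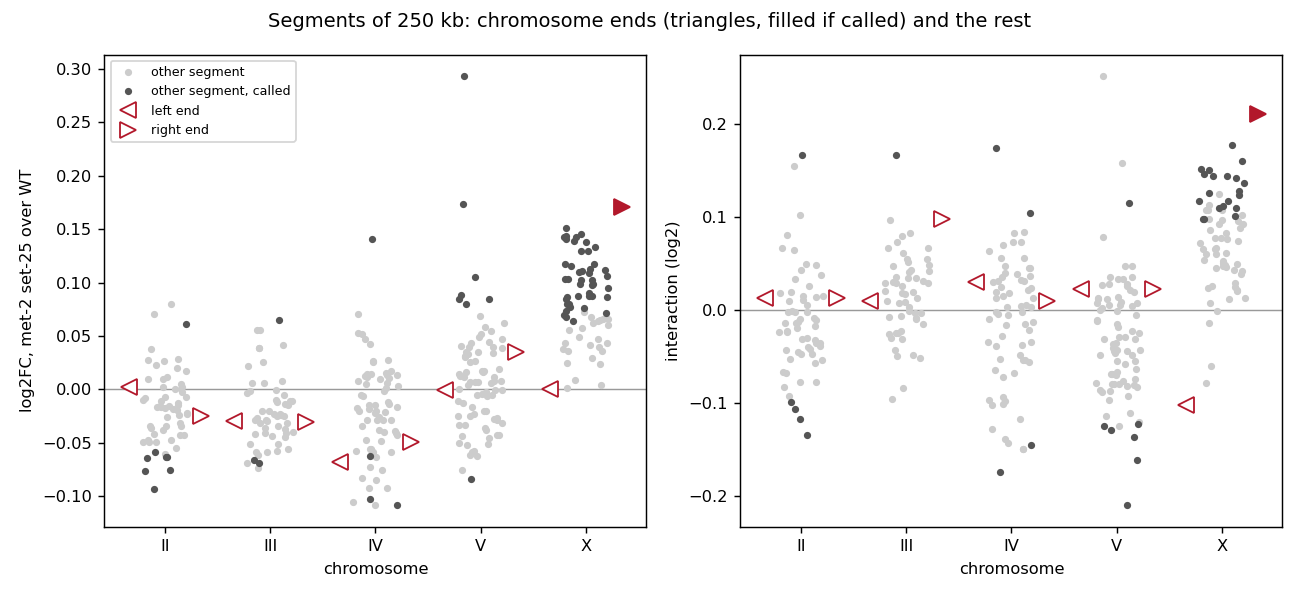
log2FC of *met-2 set-25* over WT (left panel) and the interaction (right panel) of 343 segments of 250 kb on 5 chromosomes. Triangles pointing left and right are the chromosome ends, filled where the FDR was below 0.01, and circles are other segments, dark where called. The right end of X is the only filled triangle in both panels, at 0.17 and 0.21.

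Gene families that are common on chromosome arms contributed few windows. The 24 windows of 7 C-type lectin genes had a median log2FC of -0.11 in double-mutant cells over WT, the 9 windows of F-box genes -0.05 and the 12 windows of 11 chemoreceptor genes -0.05, and no window of these was called. The 5 windows of *pals* genes had a median of -0.11, also without a call. These lists are short, and at the ends other than X right 0.721% of windows were higher and 0.962% lower, so that few calls could arise in them. Of the 53 piRNA windows 1 was lower and 0 were higher, with a median of -0.07. Protein-coding windows had 19 higher and 4 lower calls of 656 (median -0.03), and ncRNA windows 4 and 3 of 100 (median -0.02), beside a median of -0.04, 3.44% higher and 0.731% lower over all windows. At the right end of X the median was 0.15 for 41 protein-coding and 0.14 for 10 ncRNA windows. Windows of the 12 muscle marker genes, which lie elsewhere, moved in the same direction, with 19 of 55 higher and 0 lower in *met-2 set-25* (median 0.11). Their part in the gains at the ends was not tested.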

How the data were processed

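The authors deposited a table of unnormalized counts for 12 libraries. According to the methods of the study, the authors trimmed reads with cutadapt, aligned them to ce10 with bowtie2, removed duplicates with Picard, corrected their position for the Tn5 offset and counted them with QuasR irrespective of strand, and bedtools 2.26 is named in the submitters' processing notes. How reads with several matches were treated is not given in the sources used here. Of the 51519 windows, 762 combine several intervals and were not eligible as end windows. The 24 of them that touch an end were left out.

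From these counts, normalized counts and log2FC values were computed. All 51281 windows with a count were fitted by the two-sided quasi-likelihood test of edgeR 4.0.16 (glmQLFit, then glmQLFTest, under R 4.3.3, 12 libraries, genotype as the factor, library size equal to the column total), and p-values were adjusted by Benjamini-Hochberg over all windows. The summed counts of 343 segments of 250 kb were fitted likewise. Standard errors follow from the log2FC and the F statistic. Alternatives were TMM factors, DESeq2 1.42.0, filterByExpr, a replicate block, the signal index (percentage of counts in the strongest 5% of autosomal windows by their mean in *set-25*, without the 10 with most counts) as a covariate, an FDR of 0.05, only the compared genotypes, omission of each library, ends of 100 kb, and repeated coordinates counted once. TMM factors with the block were added after the data were seen. The fit was tested on simulated data of 51276 windows for *met-2 set-25* against WT. There 90 of 90 windows changed by 0.5 on the log2 scale and 110 of 110 changed by 1 were recovered, with 0 false calls. Most named calls against WT were smaller than 0.5 in size. Changes of that size were not simulated, so the simulation cannot show how well they are recovered. No conclusion about the calls reported here was drawn from it.

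Named windows are the outermost and the strongest WT window of each end and the 3 with the smallest interaction FDR. Added to these are up to 2 called windows per direction and end in *met-2 set-25* against WT, and up to 3 in each other pairwise contrast. Such called windows were taken only where the libraries of the compared genotypes did not overlap, so that this separation was set by the choice. Other names were chosen after their values were seen. The windows, gene lists and marker lists were chosen with earlier results of these data known. Gene names and biotypes come from RefSeq (WBcel235), matched by transcript identifier for 832 of 889 windows, and none of its coordinates were used. Overlapping and antisense windows share reads. Column totals are sums over windows, not sequencing depth. Sequences, peaks and chromosome I were not analysed here.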

Additional observations from a re-analysis of the deposited data

Results flagged for a closer look

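The right end of X drew attention because the effect of losing *met-2* differed with the state of *set-25*. *met-2 set-25* exceeded *set-25* by 0.24 on the log2 scale, whereas *met-2* exceeded WT by 0.03, and the interaction, which tests this difference itself, was 0.21 (SE 0.05, FDR 0.0026 over 343 segments in edgeR's quasi-likelihood test). It was the only end with a called interaction, and 38 of the 343 segments had one, 21 of them higher on X. With the signal index as a covariate it was 0.06 and was not called. Its cause was not tested.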

How the results depend on the processing

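The counts of called end windows depended on the setting. For *met-2 set-25* against WT (23 higher, 8 lower), an FDR of 0.05 gave 50 and 33, DESeq2 35 higher, TMM factors 2 lower, ends of 100 kb 4 lower, repeated coordinates counted once 15 higher, and the signal index as a covariate 0 and 0. Leaving out 1 library gave 0 to 39 higher and 0 to 21 lower. Against *set-25* (53 higher, 9 lower), the same settings gave 81 and 47 (FDR of 0.05), 85 higher (DESeq2), 3 lower (TMM factors), 25 and 4 (ends of 100 kb), 0 and 0 (covariate) and 24 lower (compared genotypes alone). Leaving out 1 library gave 29 to 66 higher and 2 to 17 lower. Against *met-2* (0 and 0), an FDR of 0.05 gave 20 and 1, DESeq2 3 and 1, the compared genotypes alone 1 lower, and leaving out 1 library 0 to 4 higher and 0 to 1 lower. The interaction (0) was called at 25 windows (FDR of 0.05), 8 (DESeq2) and 0 to 5 (1 library left out). In *met-2* against WT (0), 2 windows were lower with DESeq2, with the covariate and at an FDR of 0.05.

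Of the end segments called in *met-2 set-25* against WT (1), 2 were called with DESeq2 and at an FDR of 0.05, 0 with the covariate, and 1 to 3 without 1 library. The covariate gave 0 against *met-2* and *set-25* (1 each) and 1 in *met-2* against WT (0). Against *met-2* 0 were called with the compared genotypes alone and 0 to 1 without 1 library. Of the 40 levels of an end in a genotype, 9 moved by more than 1 SD with TMM factors, 20 as medians and 24 with ends of 100 kb. No named value that was called changed sign. Of 39 named values 20 were called, and all 20 lost their call with the covariate, 4 with TMM factors and 4 with DESeq2, which called 3 others.

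Replicate numbers were not treated as pairs: deviations of libraries with the same number correlated by 0.09 on average (-0.16 to 0.40), with 6 of 18 pairs over 0.1, against -0.05 and 5 of 36 for libraries with other numbers. A replicate block gave 42 higher and 13 lower windows in *met-2 set-25* against WT, 26 and 1 against *met-2*, 23 lower ones against *set-25*, 2 lower ones for *met-2* itself, and 21 interactions. TMM factors together with the block, an alternative added after the data were seen, gave 54 higher ones against WT, 36 and 1 against *met-2*, 87 and 4 against *set-25*, 2 lower ones for *met-2*, 30 interactions, and 2 end segments against WT. The cause of these changes was not tested. Libraries of 1 genotype differed by a chi-square of 3.22 to 8.22 per window, so none repeats another.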
